A study of Mus musculus with 3 samples.

Results

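Expression of the mouse chitinase-like and resistin-like secreted proteins was examined in dendritic cells grown from bone marrow. The members, named by gene symbol, were Chil1, Chil3, Chit1, Retn, Retnla, Retnlb and Retnlg, 7 of the 19938 genes that had a probe set of their own, and each was read by 1 probe set. The cells came from marrow of the inbred strain C57BL/6J and were cultured for 9 days with 20 ng/ml GM-CSF and 20 ng/ml IL-4. All 3 arrays belong to this single group, with no untreated, mutant or earlier sample, so nothing here shows a response to either cytokine. The labels do not say whether the replicates were separate mice or cultures, and the spread between them may be technical.

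Chitinases cut chitin, a sugar polymer of fungi, insects and worms that mammals do not make. Chit1 encodes chitotriosidase, an active enzyme of human macrophages, whereas Chil1 (BRP-39) and Chil3 (Ym1) encode relatives that bind sugars but have lost the enzyme activity. The resistin-like proteins are small, cysteine-rich and secreted. In mice Retn (resistin) is a gene of fat cells, Retnlb of intestinal goblet cells and Retnlg of marrow and neutrophils, and Retnla (RELM-alpha, FIZZ1) is made by macrophages and epithelia. Chil3 and Retnla are classic markers of macrophages exposed to IL-4, which acts on them through the transcription factor STAT6, with C/EBP factors taking part at Retnla.

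The genes lie in clusters. In the RefSeq gene order of the GRCm38.p6 assembly, Retnlb, Retnla and Retnlg are consecutive protein-coding genes on chromosome 16. Chit1 and Chil1 are neighbours on chromosome 1, and Chil3 lies between Chia1, the gene of acidic mammalian chitinase, and Chil4 (Ym2), its closest relative, on chromosome 3. Retn stands apart from its relatives, on chromosome 8.

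The 250 bases before the annotated start are shown for Retnla and Retnlg, the 2 members that differed between arrays, and for Chil3 and its copy Chil4, because these pairs are related in sequence. They are from RefSeq, build GRCm38.p6, at chr16:48842359-48842608, plus strand (Retnla), chr16:48872358-48872607, plus strand (Retnlg), chr3:106167565-106167814, minus strand (Chil3) and chr3:106219480-106219729, minus strand (Chil4). Each is written 5′ to 3′ in the direction of the gene. Capitals mark matches to a STAT motif, TTC and GAA parted by 4 or 3 free bases, or to a C/EBP motif, TTGC and AA parted by 2 free bases, on either strand.
Retnla: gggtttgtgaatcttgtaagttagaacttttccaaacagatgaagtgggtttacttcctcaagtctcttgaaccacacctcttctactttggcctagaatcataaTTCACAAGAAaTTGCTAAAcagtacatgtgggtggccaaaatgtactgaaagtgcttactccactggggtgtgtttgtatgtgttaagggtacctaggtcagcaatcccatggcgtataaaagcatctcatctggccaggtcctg
Retnlg: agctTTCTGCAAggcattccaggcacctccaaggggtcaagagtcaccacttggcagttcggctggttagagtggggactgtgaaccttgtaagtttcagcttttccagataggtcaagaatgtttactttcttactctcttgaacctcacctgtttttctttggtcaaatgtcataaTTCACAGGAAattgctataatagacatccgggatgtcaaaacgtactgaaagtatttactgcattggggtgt
Chil3: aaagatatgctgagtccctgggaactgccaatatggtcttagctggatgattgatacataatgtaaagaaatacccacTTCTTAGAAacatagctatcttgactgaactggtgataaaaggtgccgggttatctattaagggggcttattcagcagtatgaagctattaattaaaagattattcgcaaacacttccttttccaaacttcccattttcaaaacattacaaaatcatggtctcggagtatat
Chil4: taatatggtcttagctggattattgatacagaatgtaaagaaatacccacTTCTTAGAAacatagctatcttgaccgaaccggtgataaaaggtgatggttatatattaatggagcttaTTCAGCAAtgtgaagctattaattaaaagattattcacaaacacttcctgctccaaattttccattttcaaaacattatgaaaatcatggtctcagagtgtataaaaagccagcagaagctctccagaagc

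Retnla and Retnlg shared a stretch of 175 aligned bases, 138 of them identical (78.9%), and Chil3 and Chil4 shared 220, 201 of them identical (91.4%). Among the 28 pairs formed by 6 members, Chil4 and Chia1, the local alignment scores of these pairs were 187 and 354. Chil4 with Chia1 scored 93, and the remaining 25 pairs scored 18 to 32. Within the shared stretch Retnla held TTCACAAGAA from base -145 to -136 before its start, and Retnlg held TTCACAGGAA from -72 to -63. Retnla also held the C/EBP match TTGCTAAA from -134 to -127, with 1 base between it and the STAT match, and Retnlg held TTCTGCAA on the opposite strand from -246 to -239. Chil3 and Chil4 both held TTCTTAGAA, from -172 to -164 and from -200 to -192. Retnlb has no entry in the promoter table.

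Such matches were not rare. Of 32851 promoter windows of the same length, 5.85% held the STAT motif with 4 spacer bases, 7.02% the one with 3 and 9.56% the C/EBP motif. Of the 6 members with a window, 2, 1 and 2 held them. A match describes letters only and shows no binding in these cells.

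**Figure D1:**
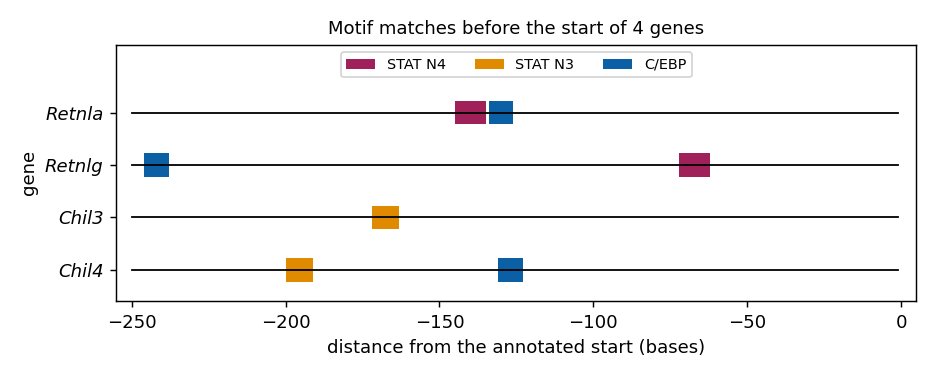
Motif matches before the start of Retnla, Retnlg, Chil3 and Chil4, drawn to scale with the distance from the annotated start in bases on the x axis and 1 line per gene. Retnla and Retnlg each hold 1 STAT match with 4 spacer bases, at -145 and -72, and Chil3 and Chil4 each hold 1 with 3 spacer bases, at -172 and -200.

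Detection was judged against a background limit that a member had to exceed in all 3 arrays, the 95th percentile of 1210 olfactory and vomeronasal receptor probe sets, genes not used by marrow cells (5.54, 5.54 and 5.55 log2 units in replicates 1, 2 and 3). Of the 7 members 3 passed (Chil3, Retnla and Retn), against 60.5% of all genes. Retnlg passed in 2 of the 3 arrays (1.27% of all genes passed in 1 or 2), and Chil1, Chit1 and Retnlb passed in none. With the limit at the 99th percentile, which 46.2% of all genes passed, 2 of the 7 were left, Chil3 and Retnla. The same 2 passed a limit set by genes of tissues absent from marrow, which 46% of all genes passed. The call is a rough statement of detection, since probe sets bind with different strength, and no level of a member is set against that of another.

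**Figure D2:**
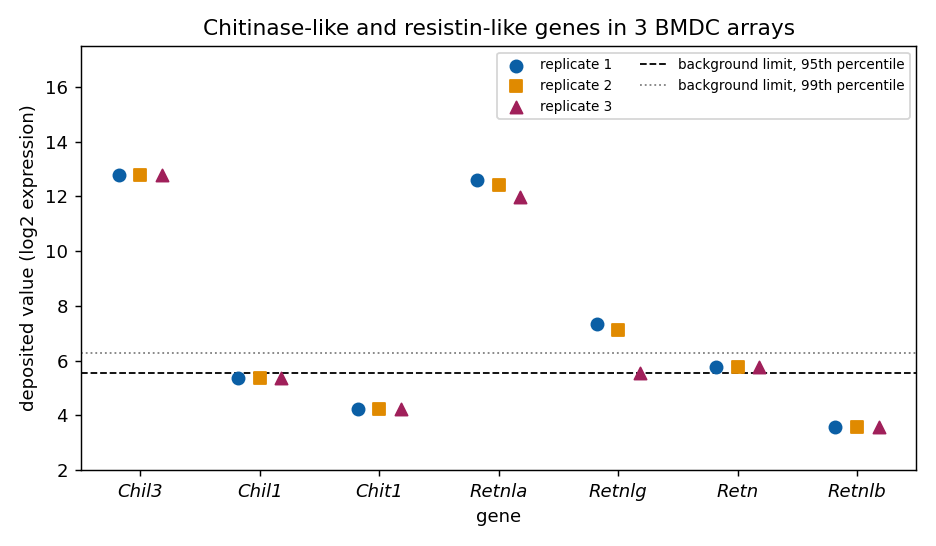
Deposited values (log2 expression, y axis) of the 7 genes (x axis) in replicates 1, 2 and 3, with 1 symbol per array, and the means over the arrays of both background limits as dashed and dotted lines. Chil3 and Retnla lie at 11.98 or more in every array, Retnlg lies at the limit in replicate 3 only, and Chil1, Chit1 and Retnlb lie below it.

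Of Chil1, Chil3 and Chit1, Chil3 was above background. Chil3 (probe set 10501020) had 12.78 log2 units in each of the 3 arrays, 7.24, 7.24 and 7.23 above the limits. The 3 values were identical as deposited, so they cannot show whether an array stood apart. The value of Chil3 lay toward the upper end of the scale, where the highest values were 13.72, 13.75 and 13.60. Whether its probes were saturated was not tested. Its copy Chil4 had 7.21 in each array, above both limits. How far each probe set also binds the RNA of the other gene was not tested, so both values are uncertain.

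The other chitinase genes among the members were not detected. Chil1 (probe set 10349968) had 5.37 in each array, 0.17, 0.17 and 0.18 under the limits, which places it close to them. Krt14, a gene of the tissues absent from marrow, had the same value as Chil1 in each array, 5.36974. Such low values can thus be shared by unrelated genes, and the margin is a rough distance. Chit1 (probe set 10349953) had 4.23 in each array, 1.31, 1.31 and 1.32 under them. All 11 measured genes linked to lysosome-rich or multinucleate macrophages, cells that make chitotriosidase in human storage disease, were above both limits. Among those were Gpnmb, a membrane glycoprotein of such cells (13.04 ± 0.0028, SD, n = 3), and Lipa, the lysosomal acid lipase (12.31 ± 0.03, SD, n = 3). Of all genes, 46.2% were above the higher limit.

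Of 6 measured genes of the wider family, 3 (50%) were above both limits, near the 46.2% of all genes above the higher one, and all 6 were identical between arrays, as 57.1% of all genes were. Those above were Chil4, Chid1, a chitinase-like protein of lysosomes and the secretory path (7.57), and Ctbs, the lysosomal chitobiase that trims sugars from glycoproteins (6.84). Chia1 (5.04), Chil5 (3.74) and Chil6 (4.01) were below. Neither Chit1 nor Chia1, the genes of the family's chitin-cutting enzymes, was above background in any array.

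Of the resistin family, Retnla was high in every array and lowest in replicate 3. Retnla (probe set 10436095) had 12.60, 12.43 and 11.98 log2 units in replicates 1, 2 and 3 (mean 12.34 ± 0.32, SD, n = 3). Replicates 1 and 2 differed by 0.17 (1.13-fold), and replicate 3 lay 0.46 (1.37-fold) under replicate 2. The span, the highest minus the lowest array, was 0.63 log2 units or 1.55-fold. A span at least this wide was found in 235 (1.91%) of the 12322 genes above background in at least 1 array. Of these 12322, 5660 were identical between arrays with a span of 0, so all 235 lay among the other 6662. The share over all 12322 thus understates how common such spans were among genes that varied. In these bulk samples, fewer cells of a type and less RNA per cell cannot be told apart.

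Retnlg, the neutrophil member, varied more. Retnlg (probe set 10436100) had 7.35, 7.11 and 5.55 in replicates 1, 2 and 3 (mean 6.67 ± 0.98, SD, n = 3). The first 2 arrays were above both limits and differed by 0.24 (1.18-fold), whereas replicate 3 lay 0.00495 under its limit. The span was 1.80 log2 units or 3.49-fold, and 13 (0.106%) of the 12322 genes spanned as much. All 13 lay among the 6662 genes that were not identical between arrays. Without replicate 3, the span was 0.17 for Retnla and 0.24 for Retnlg.

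Of the 4 members above background in at least 1 array, 2 spanned more than 0.5 log2 units, Retnla and Retnlg, against 369 (2.99%) of the 12322 genes. Those 369 were again all among the 6662 not identical between arrays. Retnlg also spanned more than 1 log2 unit, as 0.584% of the 12322 did. With 1 group of 3 arrays no test of this spread was made.

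**Figure D3:**
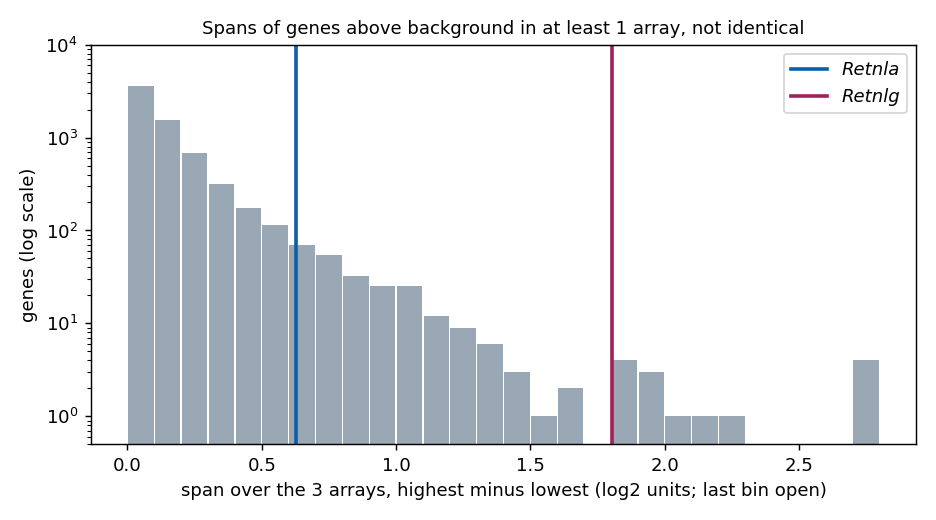
Histogram of the span over the 3 arrays (log2 units, x axis, bins of 0.1) for genes above background in at least 1 array and not identical between arrays (number of genes on a log axis, y). Vertical lines mark Retnla at 0.63, toward the edge of the bulk, and Retnlg at 1.80, in the thin tail.

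Retn and Retnlb had identical deposited values in the 3 arrays, which does not measure evenness. Retn (probe set 10569870) had 5.77 in each array, 0.23, 0.23 and 0.22 above the limits but below the 99th percentile limits of 6.28, 6.24 and 6.33. Of 36 measured genes of tissues absent from marrow cultures, 12 (33.3%) passed the lower limit as well, so its call is weak. Of 9 measured fat cell genes 6 (66.7%) passed the lower limit, against 60.5% of all genes. Plin1, a coat protein of lipid droplets (5.93), Cidec (5.71) and Slc2a4, the insulin-regulated glucose transporter (5.82), passed it in every array and not the higher one, as Retn did. Those above both limits included Fabp4, the fatty acid carrier that macrophages share (9.63 ± 0.04, SD, n = 3), and numbered 3. Adipoq, the gene of adiponectin (4.35 ± 0.09, SD, n = 3), and Lep, that of leptin (4.15), were below background. Retnlb (probe set 10436087) had 3.58 in each array, 1.95, 1.95 and 1.97 under the limits. Of 10 measured goblet and gut epithelial genes 2 (20%) passed the lower limit in all arrays and 0 the higher one. The 2 were Tff3, a trefoil peptide of goblet cells (6.32), which passed the higher limit in 2 arrays, and the mucin gene Muc2 (5.63). Spink4 (5.54) passed the lower limit in 2 arrays, and Clca1 (4.89) and Zg16 (4.01) passed in none. Its neighbour on the chromosome, Retnla, was above both limits.

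In all, 5 of the 7 members had identical values in the 3 arrays to the last deposited digit, against 57.1% of all genes. Identical values come with the deposited table, so an SD of 0 is no measure of precision for Chil3 or the others. Other genes named here, such as Gpnmb, Stat6, Cebpb, Cebpa and Tmem219, had tied values in some arrays. Their small SDs are no such measure either.

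The measured genes on the path from IL-4 were above background. All 15 measured of 17 listed genes of IL-4 receptor and STAT6 signalling with their partner factors were above both limits, against 60.5% of all genes at the lower one and 46.2% at the higher one. Il2rg and Jak3, the shared receptor chain and its kinase, were not measured, for want of a probe set naming them alone. Those measured included the receptor chain gene Il4ra (9.86 ± 0.01, SD, n = 3), Il13ra1 (9.69 ± 0.03, SD, n = 3) and Stat6 (9.70 ± 0.03, SD, n = 3). The C/EBP factor genes Cebpb and Cebpa had 8.97 ± 0.08 (SD, n = 3) and 9.28 ± 0.07 (SD, n = 3). Their median span was 0.056, and 0 of the 15 spanned more than 0.5. Cebpe, a factor of late granulocyte maturation, came nearest with 7.56, 7.51 and 7.16 in replicates 1, 2 and 3.

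Other genes of alternative activation, the macrophage state that IL-4 induces, were detected in 18 of 19 cases, with Cd209e (4.72) the exception. Of all genes, 60.5% were above background. Arg1, which encodes arginase, and Tgm2, a transglutaminase, had 12.12 and 12.69 in each array. Like those of Chil3, these values were identical in the deposited table, which does not measure evenness between arrays. The chemokine gene Ccl24 had 11.79, 11.49 and 10.94 in replicates 1, 2 and 3, and Fn1, which encodes fibronectin, had 10.94, 10.79 and 10.15. Both were lowest in replicate 3, as Retnla was, and they were the 2 of the 18 detected genes with a span over 0.5. Of all detected genes, 2.99% had such a span. Of the 15 whose arrays were not identical, 9 had their lowest value in replicate 3, against 38.2% of all such genes. Genes tied for the lowest counted for no array. Replicates 1, 2 and 3 were the single lowest in 4, 1 and 9 of the 15. Over all 6662 such genes these counts were 1610, 619 and 2547, so replicate 3 was the most frequent there too. Others went the opposite way, such as Egr2, a transcription factor (10.81, 10.89 and 10.98), and Il1rn, the antagonist of IL-1 (9.76, 9.89 and 10.05). The list's median span was 0.18, against 0.011 over all detected genes. Both medians include identical genes with a span of 0, which were 3 of the 18 here and 5660 of the 12322. The gap thus partly reflects identical values.

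**Figure D4:**
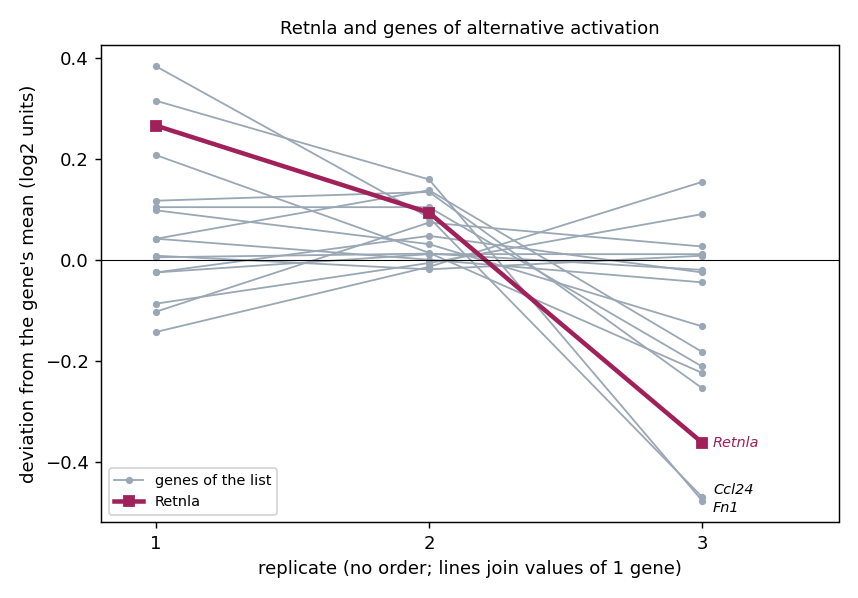
Deviation from each gene's own mean (log2 units, y axis) in replicates 1, 2 and 3 (x axis) for Retnla, in colour, and for the 15 detected genes of alternative activation that were not identical between arrays, in grey. Retnla, Ccl24 and Fn1 are lowest in replicate 3 with spans of 0.63, 0.85 and 0.79.

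The genes nearest to Retnla in their 3 deviations, by Euclidean distance among the 12322 genes, were Ptprcap, Apoe, Dek, Cblb and Ppp1r16b, at distances of 0.014 to 0.030 log2 units. Ptprcap, a lymphocyte protein tied to CD45, had 7.77, 7.59 and 7.13, and Apoe, the lipid carrier that macrophages secrete, had 9.75, 9.57 and 9.10. The likeness is a description over 3 arrays.

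Binding partners reported for these proteins were mostly above background. Of 9 measured, 7 (77.8%) were above both limits, against 46.2% of all genes above the higher one. Of these 7, 0 spanned more than 0.5, as 2.99% of all detected genes did. Cap1, a binding partner of human resistin, had 11.55 in each array, Tlr4, another proposed resistin receptor, had 9.45 ± 0.01 (SD, n = 3), and Lgals3, which encodes galectin-3, had 12.86 ± 0.03 (SD, n = 3). Il13ra2, the decoy receptor described as binding Chil1, was below background at 2.87, while its partner Tmem219 had 7.83 ± 0.04 (SD, n = 3). Ptgdr2, a prostaglandin receptor also proposed for Chil1, was below at 5.26.

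Several neutrophil genes were lowest in replicate 3, as Retnlg was. Of 24 measured, 11 (45.8%) were above the lower limit in all arrays and 3 (12.5%) above the higher one. Over all genes these shares were 60.5% and 46.2%, and over the 36 genes of absent tissues 33.3% and 5.56%. The 3 that passed the lower limit in 2 arrays only were, like Retnlg, all under it in replicate 3. These were Ly6g, the surface antigen that defines mouse neutrophils (6.73, 6.80 and 4.86), Lcn2, the iron-trapping granule protein (7.98, 6.69 and 5.12), and Cxcr2, the receptor that draws neutrophils to chemokines (6.17, 6.27 and 5.42). Pglyrp1, a granule protein that binds bacterial walls, was above in all arrays, with 8.90, 8.63 and 8.13. Of the 10 detected genes that were not identical, 8 had their lowest value in replicate 3, against 38.2% of all such genes, and 0 had it in replicate 1 or 2 alone. Genes tied for the lowest counted for no array. Of the 8, 3 (Ly6g, Lcn2 and Cxcr2) were detected through replicates 1 and 2 alone. Their low place in replicate 3 follows from how they were called. Counted alike, replicate 3 was lowest for 8 of 8 T and NK cell genes and 10 of 11 cell cycle genes. It was lowest for 5 of 5 mast cell and basophil genes, 2 of which were likewise detected through replicates 1 and 2 alone. For macrophage genes it was lowest in 7 of 11, for dendritic cell genes in 2 of 8 and for stromal genes in 1 of 7. The pattern was thus not particular to neutrophil genes.

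Other granule genes were divided. Mmp8, the neutrophil collagenase, was above both limits with 9.16, 9.05 and 9.02 in replicates 1, 2 and 3. Camp (5.57 in each array), Fcnb (5.63 in each) and Mpo, which encodes myeloperoxidase (5.63, 5.99 and 5.63), passed the lower limit only, as did S100a9, an abundant protein of mature neutrophils (5.86 in each). Ltf (lactoferrin), Elane (neutrophil elastase) and Prtn3 (proteinase 3) lay below background in every array, at 4.65, 5.42 and 5.31. The mean level of the 24 genes was 5.81, 5.78 and 5.52 log2 units in replicates 1, 2 and 3.

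**Figure D5:**
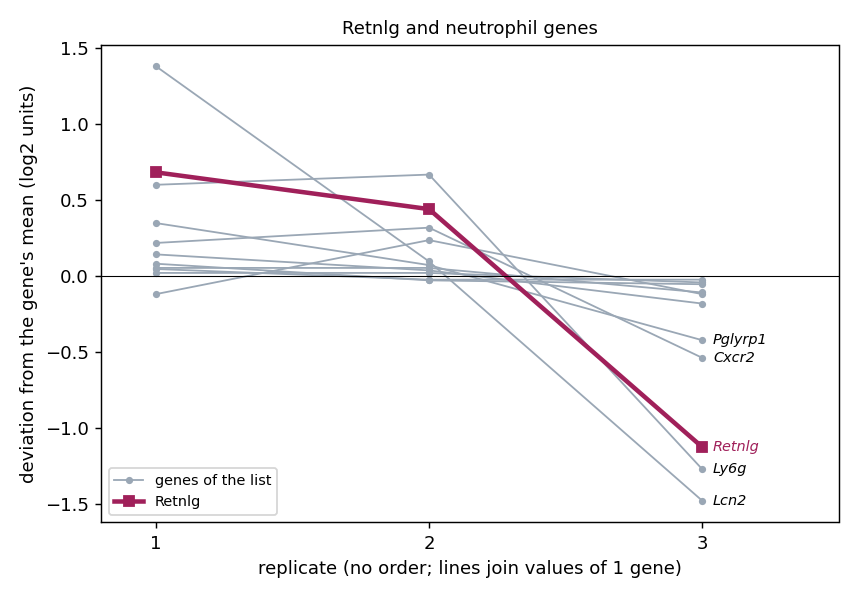
Deviation from each gene's own mean (log2 units, y axis) in replicates 1, 2 and 3 (x axis) for Retnlg, in colour, and for the 10 detected neutrophil genes not identical between arrays, in grey. Retnlg, Ly6g, Lcn2, Cxcr2 and Pglyrp1 are lowest in replicate 3, with spans of 1.80, 1.93, 2.85, 0.85 and 0.77.

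The genes nearest to Retnlg in their deviations were Slc7a5, Il6, Ly6g, Ccna2 and Plac8, at distances of 0.14 to 0.35. Slc7a5, an amino acid transporter, had 9.43, 9.01 and 7.63, and Il6, the inflammatory cytokine, had 6.20, 5.74 and 4.25. Ccna2, a cyclin of dividing cells, had 8.19, 7.82 and 6.74, so the neighbours of Retnlg were not neutrophil genes alone.

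Markers of other cells also differed between the arrays, and their part in the values of Retnla and Retnlg was not tested. Dendritic cell genes, the labelled cell type, were above background in 11 of 14 cases, with mean levels of 9.49, 9.54 and 9.48, and macrophage genes in 12 of 15, with 8.61, 8.53 and 8.44. T and NK cell genes (8 of 10; 8.12, 7.84 and 7.27), mast cell and basophil genes (4 of 10; 5.90, 5.97 and 5.18) and cell cycle genes (11 of 11; 8.17, 7.92 and 7.42) were lowest in replicate 3. Eosinophil genes passed in 2 of 7 cases (5.47, 5.48 and 5.31), and stromal genes (3 of 8; 7.08, 5.63 and 5.72) were highest in replicate 1. All 8 stromal genes passed in at least 1 array. Of these, 4 spanned over 1 log2 unit, against 0.584% of all detected genes. Their spans were 2.30 to 3.11, wider than that of Retnlg, and each was highest in replicate 1. The 9 measured housekeeping genes were level, at 11.20, 11.19 and 11.19. Over all genes, 60.5% were above background in every array.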

How the data were processed

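Total RNA of 3 BMDC samples, 150 ng each, was hybridised to Affymetrix whole-transcript arrays, 1 per sample, per the labels' protocols. The authors deposited log2 expression values, and the submitters' processing notes name RMA as the method behind them. The software version and genome build are not given in the sources used here. The values were used as deposited, not centred, with medians of 5.91, 5.91 and 5.91. The small number of arrays limits the precision.

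The platform annotation gave 1 gene for 21789 of the 35556 probe sets and several genes for 1621, and it lacked 12146. Of those naming 1 gene, 21698 matched the RefSeq table by Entrez identifier, which changed 0 symbols. Each of 19938 genes took its probe set with the highest mean. No probe set names a member together with another gene.

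With 1 group, no contrast was tested. The 7 members and 17 lists (222 of 240 genes measured) were chosen with earlier results of these data known. Named were all members and, in the lists described by gene, up to 6 leading genes, list genes above background in some arrays or spanning over 1 log2 unit, and the 5 genes nearest to each member that spanned over 0.5. Lists of other cells are given by counts and mean levels only, with the widest spans added for stromal genes. The motifs were chosen after the sequences were seen, and these genes after their values were seen: Ccl24, Tgm2, Fn1, Egr2, Il1rn, Cd209e, Cebpb, Cebpa, Cebpe, Tlr4, Pglyrp1, S100a9, Elane, Prtn3, Mpo, Mmp8, Fcnb, Slc2a4 and Krt14. Promoters were aligned locally with Biopython 1.88 (match 2, mismatch -2, gap opening -5, extension -1). Calls, spans and nearest genes were tested on simulated data. Unlike the deposited table, the simulated arrays held no identical values, and only genes of high level were changed in them. They do not cover a gene that changes near the limit, as Retnlg did. Python 3.11.15, numpy 2.4.6 and pandas 2.3.3 were used. Other background limits, calling by the mean, other probe sets, centring, another span threshold and leaving out each replicate were tried.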

Additional observations from a re-analysis of the deposited data

How the results depend on the processing

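The count of 3 members above background was 2 at the 99th percentile limit and at the limit set by the tissue genes absent from marrow, and it was 4 on the mean and without replicate 3. Of all genes, 61.2% passed without replicate 3, against 60.5% with all arrays. The count of 2 members spanning over 0.5 log2 units was 1 with a threshold of 1, and ranged from 0 to 2 with each replicate left out. It was 0 without replicate 3 and 1 without replicate 1. The count of 11 neutrophil genes above background was 3 at the 99th percentile limit and 3 at the tissue gene limit. Centring moved the arrays by at most 0.011 log2 units and gave 8 neutrophil genes lowest in replicate 3 with genes above background as the centre and 9 with housekeeping genes, against 8 as deposited. Each member has 1 probe set, so the choice of probe set could not change its value. No paired analysis was possible because the samples form 1 group. Without scanner intensities, signal over the local background could not be judged, and values near the limit, such as those of Retn, Chil1 and Retnlg in replicate 3, are uncertain.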
